A study of Mus musculus with 24 samples.

Results

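Wild-type (WT) P19 cells, a mouse embryonal carcinoma line grown as a monolayer, were treated with BMS641 and BMS961 together, each at 0.1 μM. BMS641 is an agonist of the retinoic acid receptor RARβ and BMS961 of RARγ. The combination was given for 2 d (day 2), for 4 d (day 4), or for 4 d followed by 6 d in Neurobasal medium with N2 and B27 lacking vitamin A (day 10). Each day was sequenced as 1 library. The members described here are all genes in the 3 deposited tables that compare these libraries with WT cells kept in ethanol (EtOH), the vehicle, until day 2. They number 481 of the 1753 genes listed in at least 1 of the series' 23 tables. These tables also cover Rara, Rarb and Rarg knockout lines of P19 at day 10, so the 1753 genes do not come from WT cells alone. The vehicle library of day 10 had the same 6 d in Neurobasal medium, after 4 d with EtOH. Both vehicle libraries, of day 4 and day 10 and from WT cells, were compared with the same day 2 library. They list 346 genes between them, 43 higher (2.45% of the 1753) and 14 lower (0.799%) at day 4, and 167 higher (9.53%) and 134 lower (7.64%) at day 10. The other WT libraries received ATRA (all-trans retinoic acid) or the RARα agonist BMS753, both at 1 μM, or BMS961 alone at 0.1 μM.

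Retinoic acid receptors bind DNA as heterodimers with retinoid X receptors, often at direct repeats of a short half-site. Without a ligand they recruit corepressors, and an agonist exchanges these for coactivators. In embryonal carcinoma cells, retinoic acid is known to switch on the 3′ Hox genes and its own degrading enzyme, to shut down the pluripotency network, and to start neural differentiation. RARβ is itself encoded by a retinoic acid target gene.

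The values are the authors' log2 fold changes, followed by the standard error (SE) that each fold change and its p-value imply. "Higher" and "lower" mean listed with an unadjusted p below 0.01 against EtOH day 2. The SE comes from a model of 1 library against 1, and no value has a replicate check. A gene absent from a table was not listed, which does not make it unresponsive. Read depth and expression levels are unknown, so the identity of the cells could not be checked from marker levels. In bulk RNA, fewer cells of a type and less RNA per cell cannot be told apart. At day 2 the reference is vehicle at the same age. At days 4 and 10, ligand and time differ from it together, and at day 10 the medium as well, so the vehicle tables are given beside each result.

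The combination listed 91, 105 and 322 genes at days 2, 4 and 10. At day 2, 65 genes were higher and 26 lower, which is 3.71% and 1.48% of the 1753 genes listed anywhere. At day 4 the balance was the other way, with 49 higher (2.8%) and 56 lower (3.19%). At day 10, 173 were higher (9.87%) and 149 lower (8.5%). How many genes the comparisons covered is unknown, so these percentages describe the listed genes only. The limit on size also differed by day. The smallest absolute log2 fold change listed was 2.33 at day 2, 1.17 at day 4 and 2.75 at day 10. Of the day 4 genes, 26 had a change smaller than any that was listed at day 10.

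Genes also found in a vehicle table made up 17.6% of the day 2 list (16 genes), 13.3% of the day 4 list (14) and 46.3% of the day 10 list (149). The vehicle tables hold 346 of the 1753 genes listed anywhere. The day 2 and day 4 lists do not exceed that share, and the day 10 list does. Each had the same direction in at least 1 vehicle table. Pfkl and Tagln, both of the day 10 list, had the opposite sign in the vehicle table of day 4. At day 10, 90 of the 173 higher genes and 59 of the 149 lower genes were listed with vehicle too. Counted from the other side, 148 genes, or 49.2% of the 301 genes of the vehicle day 10 table, were listed with the combination at day 10. The combination listed 322 of the 1753 genes on that day. Over the 3 days, 165 of the 481 genes (34.3%) were in a vehicle table and 316 in neither.

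**Figure D1:**
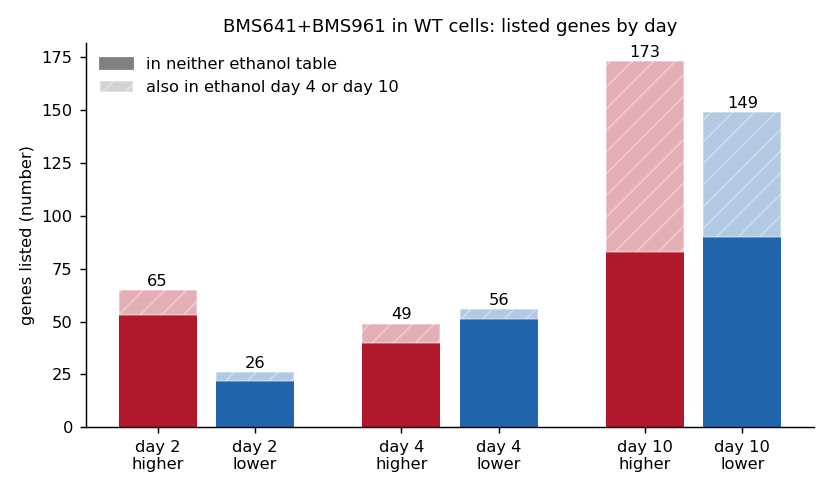
Number of genes listed with BMS641+BMS961 against WT EtOH day 2, by day and direction. Solid bars are genes in neither vehicle table and hatched parts are genes also listed in ethanol at day 4 or day 10. The hatched part is 149 of 322 genes at day 10, against 16 of 91 at day 2 and 14 of 105 at day 4. The vehicle tables hold 346 of the 1753 genes listed anywhere.

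The listed genes fell into 2 classes of precision. In every combination table a gap separated SEs of up to 1.90, 1.88 and 2.09 (days 2, 4 and 10) from SEs of at least 2.26, 2.25 and 2.36. The wide class, with an SE over 2.2, held 46, 58 and 106 genes, all with an absolute log2 fold change over 6. Many decreases of this class have the same value, within 0.001, in another library's table. This holds for 6 of 15 at day 2, 13 of 38 at day 4 and 28 of 51 at day 10, and for none of the increases. Arl11, a small GTPase, stood at −6.96 on all 3 days, in both vehicle tables and with BMS961 at day 10. A value that repeats in this way gives no size of change of its own for each library. Sizes in the wide class are therefore listed below and not read as sizes of effects. Whether libraries held no read for these genes was not tested.

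**Figure D2:**
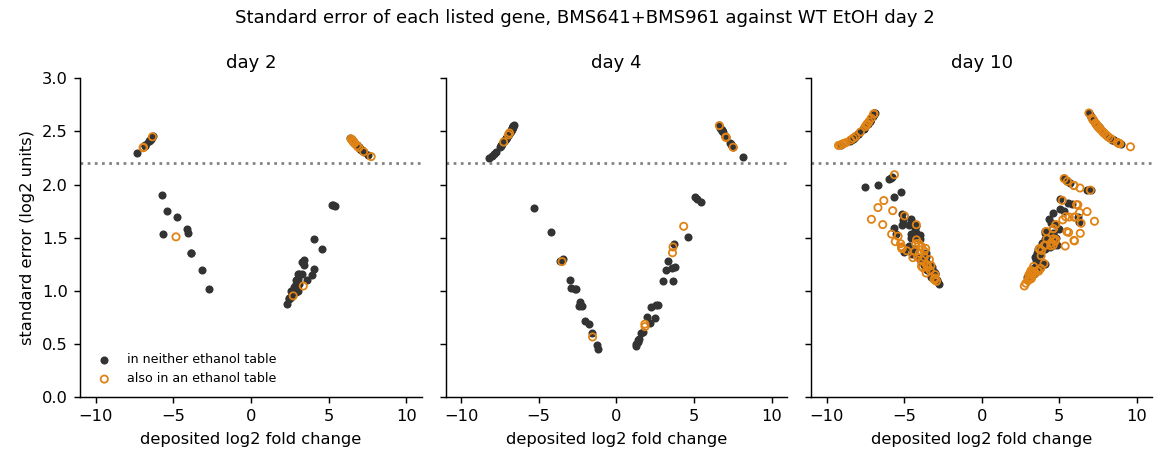
Standard error against log2 fold change for each gene listed with BMS641+BMS961 at days 2, 4 and 10. Filled points are in neither vehicle table, open points are also in one, and the dotted line at 2.2 separates the wide class, which holds 46, 58 and 106 genes.

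Of the 34 higher genes with narrow errors at day 2, Trim71, of the pluripotency list, was the only one in any of the 18 gene lists used here, which cover retinoid metabolism, Hox genes, pluripotency, neural and other cell types. The others included the ubiquitin ligase Cbl (3.92 ± 1.15), the neuronal gene repressor Rest (2.57 ± 0.94) and the Argonaute proteins Ago2 (3.01 ± 0.99) and Ago3 (2.76 ± 1.04). The transcription factor Elk4 stood at 2.58 ± 0.99, the Mediator subunit Med13 at 3.03 ± 1.07, the tankyrase Tnks at 2.72 ± 0.95 and the chromatin remodelling subunit Pbrm1 at 2.42 ± 0.92. Porcn, which acylates Wnt proteins for secretion, had 3.39 ± 1.25. Gfra1, a GDNF co-receptor, had 3.58 ± 1.10, and the imprinted zinc finger gene Peg3 2.42 ± 0.93. Of the 34, 32 were in neither vehicle table, and Tnks (1.63) and Trim71 (1.84) were in that of day 4.

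The higher genes of day 2 had long annotated transcripts. The longest annotated transcript of the 33 narrow-class higher genes with a length had a median of 6444 bases, against 2855 over all genes listed anywhere and 1972 for the 11 narrow-class lower genes of the same day. The corresponding median was 4066 with BMS753 at day 2, 3304 with ATRA at day 2 and 4531 with vehicle at day 4. At days 4 and 10 of the combination it was 3692 and 3000. The part of transcript length in the day 2 list was not tested. Also higher at day 2 were 2 genes of noncoding RNAs that lack a poly(A) tail, although the libraries were made from poly-T captured RNA. They are Terc, the telomerase RNA (7.14 ± 2.32, wide class), and Rmrp, the RNA of RNase MRP (2.90 ± 0.98).

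The largest day 2 values belonged to the wide class. Among genes in neither vehicle table they were Muc2, a gel-forming mucin (7.54 ± 2.28), Gm16386 (7.28 ± 2.31), Pglyrp1, a peptidoglycan-binding protein (7.22 ± 2.31), Terc and Irgc1 (7.10 ± 2.33). Among those also listed with vehicle they were Ankrd53 (7.74 ± 2.26), the neuronal splicing factor Srrm4 (7.25 ± 2.31), the endocytic receptor Cubn (6.94 ± 2.35), Tcp11x2 (6.82 ± 2.37) and AI854703 (6.67 ± 2.39). The pocket protein Rbl2 (6.61 ± 2.40) was likewise in a vehicle table, at 6.51 at day 4.

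Among lower genes of day 2 in neither vehicle table, the largest values were those of Rprml (−7.35 ± 2.30), the cone transducin subunit Gnat2 (−6.85 ± 2.36), the cardiac troponin Tnni3 (−6.81 ± 2.37), the receptor kinase Ltk (−6.81 ± 2.37) and Tmie (−6.58 ± 2.41). All 5 were of the wide class. With narrow errors, the homeobox gene Barx1 had −5.76 ± 1.90, the transcriptional cofactor Lmo1 −5.39 ± 1.75, the matrix cross-linking enzyme Loxl1 −4.76 ± 1.70 and the lysosomal regulator Tfeb −3.86 ± 1.36. Of the lower genes, 4 were listed with vehicle. They were Arl11 (−6.96 ± 2.35), 4931440P22Rik (−6.92 ± 2.35), Acp7 (−6.35 ± 2.45) and Sost, a secreted Wnt antagonist (−4.83 ± 1.51).

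At day 4 the higher genes included Hox genes of the 3′ end of the clusters. Hoxb1 had 7.45 ± 2.37 and Hoxa2 5.07 ± 1.88. Meis2, a homeodomain partner of Hox proteins, had 2.54 ± 0.87. None was in a vehicle table. In all, 4 genes of the Hox list were higher, which is 14.8% of its 27 genes listed anywhere, against 2.8% over all listed genes. Hoxb1 belongs to the wide class. In mm9, Hoxa2 (chromosome 6, 52112350 to 52115412, minus strand) lies partly within the annotated span of Hoxa3. How the counting treated overlapping genes is not given in the sources used here.

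The same Hox genes stood at other sizes with the other ligands, whose doses differed. At day 4, Hoxa2 stood at 8.31 with ATRA and 8.49 with BMS753. With BMS753, Hoxb1 had 9.01, and it was not listed with ATRA on that day. At day 10 no Hox gene was listed with the combination, while Hoxa2 was listed at 7.26 with ATRA and 7.62 with BMS753. The smallest change listed at day 10 was 2.75, and no gene with a smaller change was listed there.

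Of the neural progenitor list, 2 of 33 genes listed anywhere (6.06%) were higher at day 4, Pax3 and Irx3, and of the morphogen list 2 of 35 (5.71%), Wnt1 and Bmp4, against 2.8% over all listed genes. Dmrt3, Sp8 and Ntn1, in none of the 18 lists, are given beside them, Ntn1 having been chosen after its values were seen. Dmrt3, a transcription factor of spinal interneurons, had 8.14 ± 2.26 (wide class), Pax3 5.44 ± 1.83 and Wnt1 4.61 ± 1.51. Irx3 had 3.62 ± 1.36, the morphogen Bmp4 4.34 ± 1.61, and the axon guidance cue Ntn1 2.68 ± 0.86. Irx3 and Bmp4 were also listed with vehicle at day 10 (4.59 and 6.68), together with Sp8 (6.94), which had 6.63 ± 2.55 here and belongs to the wide class. Dmrt3, Pax3, Wnt1 and Ntn1 were in neither vehicle table.

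The remaining higher genes of day 4 had varied functions. The largest in neither vehicle table beside Dmrt3 and Hoxb1 were the iron reductase Cybrd1 (7.49 ± 2.36), Gm5936 (7.43 ± 2.37) and the homeobox gene Nkx2-4 (7.38 ± 2.38). Sox18, a transcription factor of endothelium, stood at 7.02 ± 2.46. All 4 are in the wide class. Among genes also in vehicle the largest were Fv1 (7.52 ± 2.35), a retroviral restriction factor, the MAX partner Mxd4 (7.07 ± 2.44) and Ankrd53 (7.06 ± 2.45). Smaller values with narrow errors belonged to Egfr (3.65 ± 1.41), Thbs1, a matrix glycoprotein (1.85 ± 0.66), Sox13 (1.73 ± 0.61), Sema6a (1.40 ± 0.53), the cytokine receptor Cntfr (1.41 ± 0.51) and the helicase Dhx9 (1.28 ± 0.49). Egfr and Thbs1 were also listed with vehicle at day 10.

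Among the lower genes of day 4 were Gdf3 (−1.58 ± 0.60) and Tdgf1 (−1.53 ± 0.56), a TGFβ family ligand and the Nodal co-receptor, both typical of pluripotent cells. They are 2 of the 20 pluripotency genes listed anywhere, or 10.0%, against 3.19% over all listed genes. Of the same 20, 1 was higher at day 4 (5%, against 2.8%), Trim71 with 1.83, which was also listed with vehicle. Tdgf1 was also lower with vehicle at day 10 (−3.37), and Gdf3 was in neither vehicle table. The tight junction gene Cldn6 had −1.26 ± 0.48. The ventral forebrain factor Gsx2 had −3.50 ± 1.27 and was listed at −8.42 with vehicle at day 10. The imprinted noncoding RNA H19 (−6.73 ± 2.53) was in the wide class, as were the largest decreases outside vehicle, Fahd2a (−8.20 ± 2.25), Zbtb32 (−8.04 ± 2.27), Coro6 (−7.88 ± 2.29), Pih1d2 (−7.77 ± 2.31) and the lipoxygenase Alox12 (−7.50 ± 2.36). Among those also in vehicle the largest were Plekhd1os (−7.26 ± 2.40), Arl11 and Gm550 (−6.89 ± 2.49). In all, 38 of the 56 lower genes of day 4 had wide errors.

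Few genes were listed on more than 1 day. Of the 481 genes, 447 were listed on a single day and 34 on more. Days 2 and 4 shared 9 genes that were absent at day 10, days 4 and 10 shared 17, days 2 and 10 shared 5, and 3 genes were in all 3 tables. The smallest change listed was 1.17 at day 4 and 2.75 at day 10. A gene under 2.75 at day 4, such as Meis2, could thus be among the 17 only with a larger change at day 10. Several regulators of the 17 had a larger value at day 10 than at day 4. Pax3 went from 5.44 ± 1.83 to 6.77 ± 1.95, Wnt1 from 4.61 ± 1.51 to 6.18 ± 1.70 and Meis2 from 2.54 ± 0.87 to 3.45 ± 1.22. Dmrt3, of the wide class on both days, had 8.14 ± 2.26 and 8.81 ± 2.39. None of these 4 was in a vehicle table, and each step was smaller than the SE of the day 10 value. Tmem108 had 3.01 ± 1.09 and 3.53 ± 1.35.

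The pluripotency genes Gdf3 and Tdgf1 were lower on both days. Gdf3 stood at −1.58 ± 0.60 at day 4 and −4.50 ± 1.34 at day 10, and Tdgf1 at −1.53 ± 0.56 and −5.12 ± 1.40. Both day 4 changes are smaller than any listed at day 10, so listing on both days required a larger change at day 10. Porcn was listed at 3.39 ± 1.25 and 3.57 ± 1.21 and was absent at day 10. Trim71, a translational repressor of early development, had 3.36 ± 1.04 and 1.83 ± 0.68, beside 1.84 with vehicle at day 4. The 3 genes of all 3 tables were Arl11, Gm16386 (7.28 ± 2.31, 6.85 ± 2.50 and 7.54 ± 2.54) and Prex2, a Rac exchange factor. Prex2 was the only gene of the 34 with opposite signs, at 2.33 ± 0.88 and 1.26 ± 0.48 on the earlier days and −3.48 ± 1.20 at day 10, and it was in neither vehicle table.

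The remaining genes of more than 1 day were mostly of the wide class or shared with vehicle. On days 2 and 4, the potassium channel gene Kcnc1 had 6.98 ± 2.34 and 7.30 ± 2.39, the orphan receptor Gpr63 6.93 ± 2.35 and 6.99 ± 2.46, and Cybrd1 6.63 ± 2.40 and 7.49 ± 2.36. Tfeb, the only narrow-error decrease of both days, had −3.86 ± 1.36 and −3.42 ± 1.30. Tnni3 and Ltk stood at one shared value of −6.81 on both days. On days 2 and 10, Kctd12 had 6.52 ± 2.42 and 8.81 ± 2.39 and was listed with vehicle on both vehicle days (6.81 and 7.18). The class I histocompatibility gene H2-M5 had 6.58 ± 2.41 and 7.45 ± 2.55 and was listed with vehicle at day 4 (6.35). Sost had −4.83 ± 1.51 and −8.28 ± 2.44, and also −8.28 with vehicle at day 10. Osgin1, outside vehicle, had −3.86 ± 1.36 and −8.26 ± 2.44. On days 4 and 10, Egfr had 3.65 ± 1.41 and 4.62 ± 1.58, against 4.48 with vehicle at day 10. Bmp4, Irx3, Sp8 and Thbs1 were also shared with that table. Outside vehicle, Paqr9 had −5.32 ± 1.78 and −8.14 ± 2.45, while Mr1, Scarf1 and H2-T3 kept 1 value each on both days (−7.21, −6.92 and −6.92).

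**Figure D3:**
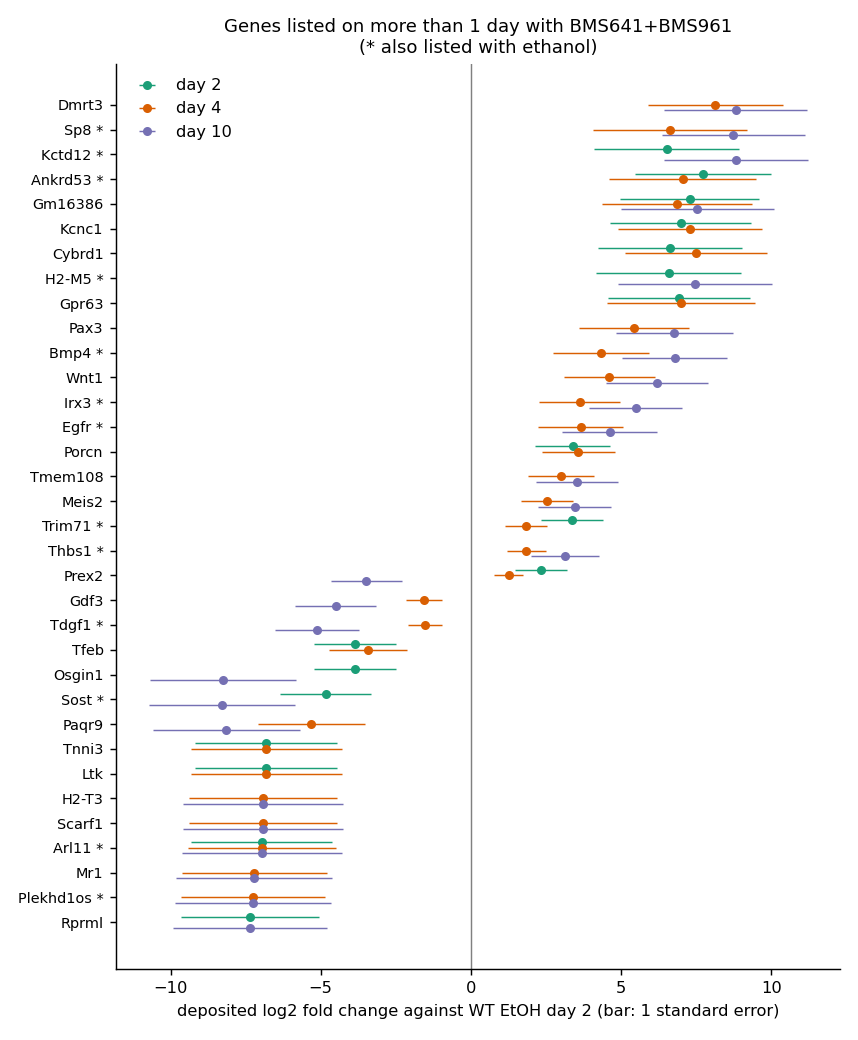
Log2 fold change with 1 standard error for the 34 genes listed on more than 1 day with BMS641+BMS961, coloured by day. An asterisk marks genes also listed with vehicle. Prex2 is the only gene with points on both sides of 0, and the lower genes from Tnni3 to Rprml lie at the same value on each day they are listed.

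At day 10 the higher genes outside the vehicle tables included regulators and structural genes of the nervous system. Of the neural progenitor list, 9 of the 33 genes listed anywhere were higher (27.3%, against 9.87% over all listed genes). Their median was 5.67, against 5.32 over all 173 higher genes of the day. Both medians include wide-class values, so they are not compared as sizes of effects. Of the 9, 6 were in neither vehicle table, beside 83 of the 173. The 6 were the Notch target Hes5 (8.94 ± 2.38), Gbx2 (7.37 ± 2.57), Pax3, Pou3f2 (5.67 ± 2.02), Onecut2 (4.38 ± 1.42) and Pax6 (4.34 ± 1.45). The other 3 were also higher with vehicle. Among them, Sox21 had 6.02 ± 1.69 against 5.74 with vehicle, and Irx3 5.49 ± 1.56 against 4.59. Hes5 and Gbx2 have wide errors. With vehicle at day 10, 3 of the 33 were higher.

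Of the neuronal cytoskeleton list, 3 of 14 genes were higher (21.4%, against 9.87% over all listed genes), all outside vehicle. With vehicle at day 10, 0 of the 14 were higher. Dcx, a microtubule protein of migrating neurons, had 4.67 ± 1.43, the microtubule protein Mapt 3.46 ± 1.32 and the growth cone protein Gap43 3.07 ± 1.14. Of the synapse list, 2 of 23 were higher, the vesicular glutamate transporter Slc17a6 (8.46 ± 2.42, wide class) and the synapse organiser Cbln1 (4.85 ± 1.43). This share of 8.70% lies near the 9.87% of all listed genes. Further neural genes outside vehicle and outside the lists were Foxb1 (8.15 ± 2.45), Vax1 (7.32 ± 2.58), Irx5 (7.04 ± 1.95), Nhlh1 (5.80 ± 1.82), Robo3 (4.43 ± 1.64), Dner (4.62 ± 1.55) and Fezf2 (4.98 ± 1.58). These 7 were chosen after their values were seen, and Foxb1 and Vax1 have wide errors.

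The same genes had these values in the other WT libraries of day 10, at doses that differ for ATRA and BMS753. Mapt stood at 8.05 with ATRA and 7.45 with BMS753, Dcx at 8.35 and 7.56, and Gap43 at 6.30 and 5.54. For these the combination had the smaller value, but not for every neural gene. Irx5 had 7.04 with the combination, 6.55 with ATRA and 6.51 with BMS753. Dmrt3, of the wide class, had 8.81, 8.69 and 7.48. Fezf2 was listed with neither ATRA nor BMS753 at day 10. Hes5 stood at 9.40 with ATRA, 9.15 with BMS753 and 7.42 with BMS961 alone, and Pax3 at 7.65, 7.47 and 5.34. BMS961 alone, at the same dose and time, also listed Pax6 at 3.70 and Cbln1 at 3.85, and did not list Dcx, Mapt, Gap43, Slc17a6, Pou3f2 or Gbx2. Whether the combination and BMS961 differ for these genes could not be tested with 1 library each.

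**Figure D4:**
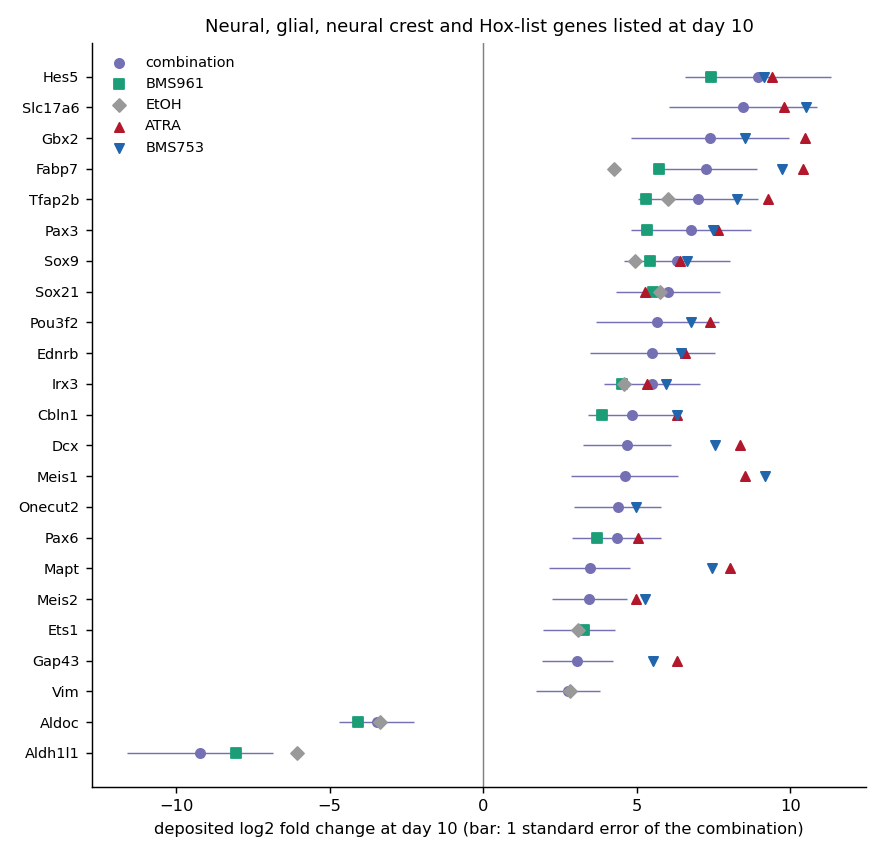
Log2 fold change at day 10 against WT EtOH day 2 for members of the neural, glial, neural crest and Hox lists that are reported here for BMS641+BMS961 (circles, with 1 standard error), beside the values with BMS961, EtOH, ATRA and BMS753. A missing marker means that the gene was not listed there. ATRA and BMS753 were used at 1 μM and the other agonists at 0.1 μM. For Dcx, Mapt and Gap43 the combination lies between 3.07 and 4.67 and both 1 μM ligands at 5.54 or more.

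Of the 13 astrocyte and radial glia genes listed anywhere, 3 were higher (23.1%, against 9.87% over all listed genes) and 2 lower (15.4%, against 8.5%) at day 10, all of them also with vehicle. Vehicle at day 10 had 4 of the 13 higher and 3 lower. Fabp7, a lipid-binding protein of radial glia, had 7.27 ± 1.65 against 4.27 with vehicle, Sox9 6.30 ± 1.74 against 4.95, and Vim 2.75 ± 1.04 against 2.81. Aldh1l1, an astrocyte enzyme, had −9.23 ± 2.37 against −6.06, and Aldoc −3.47 ± 1.22 against −3.37. Only 2 genes of the oligodendrocyte list were listed anywhere in the series, neither of them with the combination. Of the neural crest list, 3 of 9 were higher (33.3%, against 9.87%), Tfap2b (6.997 ± 1.95) and Ets1 (3.12 ± 1.17) also with vehicle and the endothelin receptor Ednrb (5.50 ± 2.03) without it.

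The retinoid list of metabolism, binding and receptor genes had 10 genes listed somewhere in the series, and none of them with the combination on any day. Of the 27 genes of the Hox list that were listed anywhere, 2 were higher at day 10 (7.41%, against 9.87% over all listed genes). They were the cofactors Meis1 (4.60 ± 1.74) and Meis2 (3.45 ± 1.22), both outside vehicle. Meis1 stood at 8.53 with ATRA and 9.15 with BMS753.

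Secreted morphogens were largely listed with vehicle too. Of 35 morphogen and growth factor genes listed anywhere, 7 were higher (20.0%, against 9.87% over all listed genes) and 3 lower (8.57%, against 8.5%) at day 10. With vehicle at day 10, 10 of the 35 were higher and 1 lower. Wnt1 and Bmp6 (4.32 ± 1.67) were outside vehicle. Wnt7b (8.84 ± 2.39), Wnt10b (8.82 ± 2.39), Wnt6 (4.75 ± 1.48), Bmp2 (8.07 ± 2.46) and Bmp4 (6.79 ± 1.75) were also higher with vehicle, at 8.37, 9.44, 4.43, 7.99 and 6.68. The lower ones were Fgf15 (−4.82 ± 1.38, and −4.83 with vehicle), and, outside vehicle, Gdf6 (−7.95 ± 2.48) and Fgf5 (−3.96 ± 1.53).

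Most listed pluripotency genes at day 10 were lower. Of the 20 genes of that list that were listed anywhere, 6 were lower at day 10 (30.0%, against 8.5% over all listed genes). Their median was −4.81, against −5.11 over all 149 lower genes and −4.09 over the 98 with narrow errors. All 6 had narrow errors. With vehicle at day 10, 7 of the 20 were lower. Nanog had −4.32 ± 1.37 against −3.24 with vehicle, Tdgf1 −5.12 ± 1.40 against −3.37, and the nuclear receptor Nr0b1 −6.68 ± 1.78 against −4.00. Fgf4 had −3.37 ± 1.29 against −4.17, and Tdh, the threonine dehydrogenase of embryonic stem cells, −5.15 ± 1.41 against −5.22. Only Gdf3 (−4.50 ± 1.34) was in neither vehicle table. Klf4 was higher, with 3.85 ± 1.38 here and 3.87 with vehicle. The same genes had other values with the 1 μM ligands. Tdgf1 stood at −10.62 with ATRA and −10.03 with BMS753, Fgf4 at −8.68 and −8.41, and Nanog at −6.16 and −5.47.

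Other lists had few members at day 10. The shares over all listed genes were 9.87% higher and 8.5% lower. Of the muscle and heart list, 3 of 15 were higher (20.0%), all with vehicle too. They were the actin-binding protein Tagln (3.01 ± 1.11), the skeletal actin Acta1 (3.30 ± 1.18) and the natriuretic peptide gene Nppb (6.11 ± 1.81). Vehicle at day 10 had 4 of the 15 higher. Of 38 matrix genes, 4 were higher (10.5%), a share near that of all listed genes. With vehicle at day 10, 5 of the 38 were higher. Col3a1 (4.78 ± 1.49) was outside vehicle, and Col12a1 (5.94 ± 1.99), Igfbp5 (5.98 ± 1.47) and Thbs1 (3.14 ± 1.13) were not. The cell cycle list had 3 genes listed anywhere, all of them higher. Ccnd2 (4.09 ± 1.25) was outside vehicle, and the inhibitors Cdkn1a (4.61 ± 1.43) and Cdkn2c (7.59 ± 2.53) were also higher with vehicle. Of the 23 genes of the endothelium and blood list, 4 were listed anywhere and 2 of these were lower. Klf1 was listed nowhere else in the series, so it is among the 4 only because it is lower here, and no share is read from them. The angiopoietin receptor Tek (−4.28 ± 1.39) and Klf1 (−7.21 ± 2.60) were both outside vehicle. The primitive streak list had Sp5 (9.58 ± 2.36), which stood at 8.43 with vehicle.

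Of the 118 higher genes with narrow errors at day 10, 54 were outside vehicle, beside 83 of all 173 higher genes. Of the 98 lower genes with narrow errors, 56 were outside vehicle, beside 90 of all 149. Beyond the lists, and chosen after their values were seen, the 54 included Zfp503 (6.26 ± 1.65), the neurite protein Nrn1 (5.43 ± 2.04), Nxph4 (5.32 ± 1.75), Dach1 (5.01 ± 1.77), Islr2 (4.07 ± 1.49) and Rfx4 (4.05 ± 1.39). The secretory granule protein Scg3 had 3.85 ± 1.41, the neuronal membrane protein Gpm6a 3.94 ± 1.43, the growth factor Ptn 3.75 ± 1.21 and Rtn1 3.68 ± 1.27. The Eph receptor Epha4 (3.32 ± 1.19) and the ephrin Efnb1 (2.95 ± 1.13), of the family of Eph receptor ligands, lay near the lower limit of the table.

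The lower genes outside vehicle named here were likewise chosen after their values were seen. Thy1, a surface glycoprotein of neurons and other cells, had −5.53 ± 1.53. The Eph receptors Epha8 and Epha1 had −4.52 ± 1.40 and −3.58 ± 1.36, the other direction from Epha4. The netrin receptor Unc5a stood at −4.04 ± 1.31, the axonal adhesion protein Cntn2 at −3.31 ± 1.24 and the potassium channel gene Kcnq3 at −3.56 ± 1.31. Among metabolic genes, the fatty acid desaturase Fads2 had −2.75 ± 1.06, the lactate transporter Slc16a3 −2.90 ± 1.09 and the taurine transporter Slc6a6 −3.27 ± 1.13. The transcription factors Myb (−3.11 ± 1.18), Ascl2 (−4.27 ± 1.62) and Ebf4 (−3.04 ± 1.17) were lower as well.

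Higher genes shared with vehicle at day 10 also included those below, which were chosen after their values were seen. The plasminogen system had Plau (8.01 ± 2.47 against 7.92 with vehicle) and its receptor Plaur (5.22 ± 1.67 against 5.60). The annexins Anxa2 and Anxa3 had 3.19 ± 1.12 and 3.38 ± 1.18, against 3.88 and 4.24, and the S100 proteins S100a6 and S100a10 3.27 ± 1.17 and 2.99 ± 1.09, against 3.97 and 3.57. The stress genes Gadd45b and Gadd45g had 5.94 ± 1.47 and 5.96 ± 1.69, against 6.85 and 5.57, and the chaperone Cryab 6.35 ± 1.54 against 7.37. The neuroendocrine factor Insm1, also shared, had 6.19 ± 1.81 against 5.32.

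The 5 largest increases outside vehicle at day 10 were Hes5, Dmrt3, Vtn (8.50 ± 2.42), Slc17a6 and the DNA sensor Cgas (8.40 ± 2.42). Those shared with vehicle were Sp5, the forebrain factor Otx1 (8.90 ± 2.39), Wnt7b, Wnt10b and Kctd12 (8.81 ± 2.39). The largest decreases outside vehicle were the retinaldehyde-binding protein Rlbp1 (−9.05 ± 2.38), Slc4a5 (−8.52 ± 2.41), Sertm1 (−8.34 ± 2.43), Ccdc116 (−8.32 ± 2.43) and the connexin Gjb5 (−8.31 ± 2.43). Those shared with vehicle were Aldh1l1, the photoreceptor protein Rcvrn (−9.10 ± 2.37), the protease Klk7 (−8.96 ± 2.38), Dusp26 (−8.91 ± 2.38) and the hormone gene Trh (−8.75 ± 2.40). All 20 have wide errors.

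The 148 genes listed at day 10 with both the combination and vehicle were selected for passing the p limit against the same reference library in both tables, so like signs and close values are partly built into the selection and are given as a description. Without the 44 genes of wide error, the median difference, combination minus vehicle, was −0.14 over 64 higher genes and −0.04 over 40 lower genes. Of these, 56 higher and 28 lower genes differed by no more than 1. Over all 148 the medians were −0.07 and 0.00. The largest ratio of a difference to its combined SE was 1.90. The combined SE counts the shared reference library in both values and so is larger than the error of the difference. With the combination, Fabp7 was 2.998 ± 2.30 higher than with vehicle, Sox9 1.35 ± 2.48 and the nuclear receptor Nr2f2 1.34 ± 2.19. In the other direction, the difference was −1.54 ± 1.71 for Tagln, −3.90 ± 2.06 for Ndrg2 and −2.68 ± 2.26 for Nr0b1. These genes have narrow errors in both tables. The extremes were Klk7 (−5.07 ± 2.79) and Lyl1 (4.12 ± 2.92), where 1 of the values is of the wide class.

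**Figure D5:**
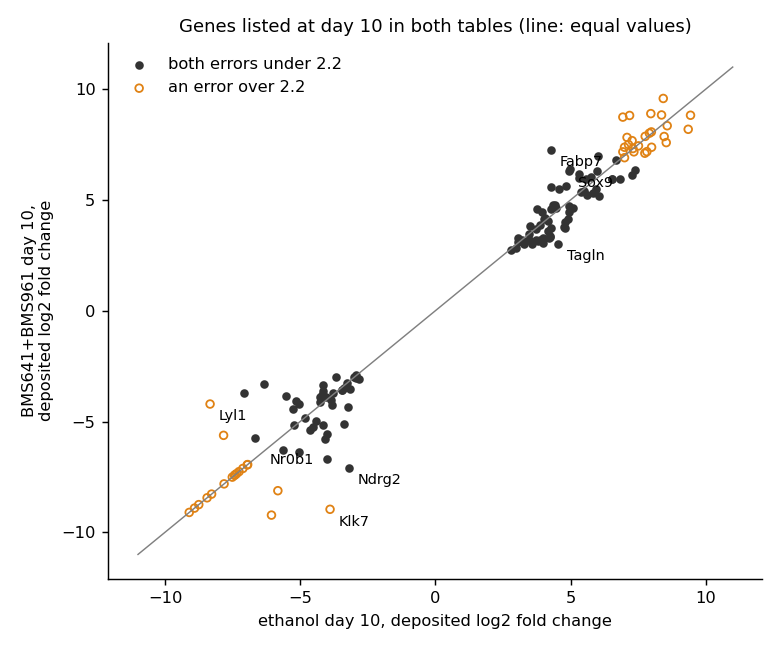
Log2 fold change with BMS641+BMS961 against that with ethanol at day 10 for the 148 genes listed in both tables. Both axes share WT EtOH day 2 as the reference, and the line marks equal values. Filled points have both errors under 2.2. Fabp7 lies above the line, and Nr0b1, Ndrg2 and Klk7 lie below it.

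The promoters of the members were searched for the repeats that RAR heterodimers are known to bind. The half-site searched was AGGTCA, or AGTTCA in its place, or GGGTCA in its place, or GGTTCA in its place, as direct repeats with 5, 2 or 1 bases between them on either strand, in the 250 bases before the RefSeq start (GRCm38.p6). A promoter was matched by symbol for 348 of the 481 genes. A repeat with 5 bases between was found in 0 of these and in 0.104% of all 27025 genes with a promoter. With 1 base between the counts were 0 and 0.196%. With 2 bases between it was found in 1 member, Tinagl1, and in 0.204% of all genes. Tinagl1, a matrix protein, was listed at 1.56 ± 0.60 at day 4. Hoxa2, Hoxb1, Meis2 and Dmrt3 had a promoter in the table and no repeat in it. A match is no evidence of a bound site, and elements outside this window were not searched. Below, the Tinagl1 window is given in full, with short windows of the known retinoic acid targets Rarb and Cyp26a1, which are not members, for comparison. All are 5′ to 3′ on the gene's strand, with the repeat and its spacer in capitals. They match mm9 exactly at chr4:129852367-129852616, chr14:17408012-17408058 and chr19:37772251-37772297.
Tinagl1: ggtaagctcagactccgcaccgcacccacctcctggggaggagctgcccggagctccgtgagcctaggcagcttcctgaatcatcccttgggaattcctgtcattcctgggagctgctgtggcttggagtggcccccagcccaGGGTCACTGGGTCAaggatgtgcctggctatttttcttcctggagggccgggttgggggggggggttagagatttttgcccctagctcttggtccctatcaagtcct
Rarb: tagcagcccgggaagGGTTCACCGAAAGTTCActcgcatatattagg
Cyp26a1: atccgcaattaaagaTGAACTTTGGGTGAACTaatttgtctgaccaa
In Tinagl1 the repeat lies 107 to 94 bases before the start, in Rarb 53 to 37 and in Cyp26a1 32 to 16, where it reads on the opposite strand.

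The tables end at p 0.01, and values outside them are not known. The last genes inside the limit were 1810019D21Rik (−6.33 ± 2.45) and Cdh18 (3.001 ± 1.16) at day 2, Trim67 (−6.60 ± 2.56) and Ttc41 (−1.17 ± 0.45) at day 4, and 1700102P08Rik (5.30 ± 2.06) and Peli3 (−6.90 ± 2.68) at day 10.

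Genes of the study's own marker lists for neural cell types were counted in the same way. These lists are long and name markers of a cell type. Of 330 neuron genes listed anywhere, 32 were higher (9.70%) and 23 lower (6.97%) at day 10, near the 9.87% and 8.5% of all listed genes. Of 98 astrocyte genes, 16 were higher (16.3%) and 13 lower (13.3%). For the dopaminergic list, 18 of 128 were higher (14.1%) and 9 lower (7.03%). The glutamatergic list had 6 of 68 higher (8.82%) and 4 lower (5.88%), and the GABAergic list 8 of 78 higher (10.3%) and 4 lower (5.13%). Of 100 genes of the list for oligodendrocyte precursors (OPC), 6 were higher (6%) and 7 lower (7%) at day 10. At day 4, 2 were higher (2%, against 2.8% over all listed genes) and 6 lower (6%, against 3.19%). Of all 173 higher genes of day 10, 83 were outside the vehicle tables. Beside this, 20 of the 32 higher neuron genes, 8 of the 16 astrocyte genes and 10 of the 18 dopaminergic genes were outside them. The counts were 3 of 8 for the GABAergic list, 4 of 6 for the glutamatergic list and 3 of 6 for the OPC list. With vehicle at day 10, 18 neuron, 11 astrocyte, 9 dopaminergic, 5 glutamatergic, 8 GABAergic and 8 OPC genes were higher. In the same order, 24, 9, 10, 5, 6 and 5 were lower with vehicle. At days 2 and 4 of the combination no list had more than 6 genes in either direction.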

How the data were processed

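Poly-T captured RNA of 24 samples of P19 cells, 1 per condition, was sequenced by the authors. Per the labels and the submitters' processing notes, reads were mapped to mm9 with Bowtie2 2.1.0, assigned to genes with featureCounts and compared with DESeq2. The versions of the last 2 tools and the strand setting are not given in the sources used here. The authors deposited 23 tables, each with the log2 fold change and unadjusted p-value of 1 library against WT EtOH day 2. The deposited table of ATRA at day 2 also holds the SE, treated as a score in log2 units. These columns are the authors' own comparison and the only values used. No read counts were used here, so depth is unknown and no interval from counting could be given.

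The SE of each value was obtained by dividing the fold change by the normal quantile of its p-value, taken as two-sided. Over the 144 genes with a deposited SE the relative difference was at most 4.27e-08. The steps were run on simulated tables with 200 changed genes of 1753 for each day, of which 200 were recovered with 0 false calls. The changed genes were set well past the p limit and the others well inside it, so this outcome was fixed in advance. It checks the code only and says nothing about errors from single libraries. Samples were grouped by their labels. With 1 library per condition no test was run.

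Genes were matched by symbol to 18 lists (621 genes) and to the study's marker lists. Members and lists were chosen with earlier results of these data known. Named genes are the 5 of greatest absolute fold change per day, direction and presence in a vehicle table, those listed on more than 1 day, listed members of the 18 lists, and those nearest the p limit. A few genes that this rule names are not reported here. Others were picked from the tables after their values were seen. Positions and transcript lengths are from the mm9 annotation (470 of 481 members). Alternatives were fold limits of 2 and 5, a p limit of 0.001, narrower definitions of the vehicle overlap, older symbols and, added after seeing the data, removal of SEs over 2.2. Paralogous families (H2, Mup, Gm genes) and antisense genes may share reads with their neighbours. Scripts ran in Python 3.11.15 (matplotlib 3.10.9, scipy 1.17.1, numpy 2.4.6, pandas 2.3.3).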

Additional observations from a re-analysis of the deposited data

Results flagged for a closer look

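A few genes had opposite signs between conditions that share the reference library, and none of these differences was tested. Prex2 was higher with BMS641+BMS961 at day 2 (2.33) and day 4 (1.26) and lower at day 10 (−3.48). Pfkl, the liver-type phosphofructokinase, was higher with vehicle at day 4 (1.23) and lower at day 10 with vehicle (−3.45) and with the combination (−3.58). Tagln was lower with vehicle at day 4 (−2.17) and higher at day 10 with vehicle (4.55) and with the combination (3.01). Pfkl and Tagln were not listed with the combination at day 4.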

How the results depend on the processing

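Counts depended most on the limits. With p below 0.001, the higher and lower genes were 5 and 1 at day 2, 3 and 4 at day 4, and 36 and 36 at day 10. With an absolute log2 fold change over 5, the higher genes were 34, 23 and 93 and the lower genes of day 10 were 76. A limit of 2, run for the higher and lower genes of each day, kept these 6 counts within 1.5 times. Without SEs over 2.2, a setting added after seeing the data, 34 higher and 11 lower genes remained at day 2, 29 and 18 at day 4, and 98 lower genes at day 10. Genes shared with vehicle were then 3 at day 2 and 7 at day 4. Over a fold limit of 5 they were 7 at day 4 and 80 at day 10, and with the vehicle day 10 table alone 5 at day 2. Members of the 18 lists, 2 higher and 2 lower at day 2, 11 and 4 at day 4, and 41 and 15 at day 10, numbered 1 and 1, 4 and 1, and 22 and 6 over a fold limit of 5. Without vehicle genes they were 0 higher at day 2, 7 higher at day 4, and 18 higher and 6 lower at day 10. Older symbols changed none of these. Of the 148 genes shared with vehicle at day 10, 29 differed by over 1, and 6 with p below 0.001 in both tables. The larger counts at day 10 go with a higher smallest listed change, and depth could not be weighed because the tables hold no counts. No replicate could be left out, and no paired analysis was possible because each condition has 1 library.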
